A study of Caenorhabditis elegans with 2 samples.

Results

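Genes listed as regulators of the left-right fate of the ASE taste neurons of Caenorhabditis elegans were examined in ChIP-seq peak lists of LSY-2. There were 10 of them, taken by name for known roles, out of 20234 annotated protein-coding and microRNA genes. They were che-1, ceh-36, nsy-7, tbx-37, tbx-38, the microRNA gene lsy-6, cog-1, die-1, lim-6 and fozi-1. Among them, che-1 and ceh-36 act in both ASE cells, and nsy-7 is known for the asymmetry of the AWC olfactory neurons. The series held 1 group of 2 biological replicates of whole L4 larvae, with both sexes pooled, of strain OP367. Its animals carry the unc-119(tm4063) III allele and the transgene wgIs367, which stably expresses LSY-2 with GFP and FLAG at its C-terminus. No untagged strain, other stage or isolated cell type was compared here. The labels name lsy-2 as the target of the antibody. Regions were listed for replicate 1, for replicate 2 and for both pooled, 30000 each, and 5944 peaks passed a threshold on the irreproducible discovery rate. The lists hold no read counts, and the depth behind them is unknown.

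The ASE neurons are a left and right pair of salt-sensing cells that look alike but express different receptors. A feedback loop keeps them apart: in the left cell, ASEL, the zinc finger factor DIE-1 and the microRNA lsy-6 hold down the homeodomain factor COG-1, and in the right cell, ASER, COG-1 prevails. LSY-2 is known as a zinc finger factor needed for lsy-6 expression in ASEL. The comparison therefore asked whether LSY-2 regions lie at the regulators themselves.

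The sequences through which the loop acts are shown first, because lsy-6 is the member that LSY-2 is known to act on. The lsy-6 gene is a hairpin of 73 bases at chrV:10647232-10647304 on the plus strand of WBcel235 (ce11), read here from the RefSeq genome. Capitals in the mature arms mark the seed, bases 2 to 8.
lsy-6 arm b: uUUUGUAUgagacgcauuucga
lsy-6 arm a: aAAUGCGUcuaguaucaaaau
lsy-6 hairpin: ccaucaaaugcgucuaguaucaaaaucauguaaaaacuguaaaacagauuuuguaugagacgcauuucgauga

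The match to the seed of arm b occurred at 2 places in the 3′ UTR of cog-1, whose annotated length is 394 bases, and in no 3′ UTR of the other 8 protein-coding members. Over all 16794 protein-coding genes with an annotated 3′ UTR, 3.11% held such a match and 0.089% held at least 2. The median 3′ UTR of these genes was 131 bases, shorter than that of cog-1, and the shares were not matched for length. The sites lie at chrII:14907399-14907421 and chrII:14907441-14907463 on the plus strand, and capitals mark the bases complementary to the seed.
cog-1 site 1: aaatcatcgtcacttATACAAAa
cog-1 site 2: ttaaaccatgcccaaATACAAAa

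None of the 10 regulators carried a thresholded LSY-2 summit. The territory searched for each was the gene with up to 5000 bp upstream of its 5′ end, or as far as the next annotated gene where that was nearer. The count was 0 of 10, against 21.6% of all protein-coding and microRNA genes (4361 of 20234), and a count of 0 allows a share of up to 30%. That limit lies above the share over all genes. With 5000 bp taken upstream of every gene whatever gene lies there, the count was still 0 of 10, against 33.8% of all genes, and there the limit lies below the share over all genes. That limit, 3 in 10, is rough for so few genes and supposes genes drawn without knowledge of the results. The regulators were chosen with earlier results of these data known, so the limit cannot tell whether they stand below other genes. No test of the difference was made. Since whole larvae were used, a site bound in few cells and a site bound weakly in many cannot be told apart.

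The territories of the regulators were longer than most. The 10 territories had a median of 7473 bp and summed to 76.39 kb, against a median of 3031 bp over all genes. Over all genes the territories held 6.8 thresholded summits per 100 kb, and over the regulators 0. The shortest territory was that of lsy-6, 161 bp, since the gene mdss-1 ends 88 bp before the hairpin. The longest was that of fozi-1, 19896 bp, of which 14896 bp are the gene.

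Weak regions, below the threshold, lay at 2 of the 10 regulators, against 38.9% of all genes with any summit of the pooled list in their territory. They were at nsy-7, which encodes a homeodomain-like factor known for the asymmetry of the AWC olfactory neurons, and at cog-1. The replicate lists gave the same 2 genes. In replicate 1 the share over all genes was 39.7% and in replicate 2 it was 41.4%. Summits of both replicates within 200 bp of each other lay in the territory at these 2 of 10 regulators, against 33.5% of all genes. These shares include genes that also have a thresholded summit. With a pooled summit but no thresholded one in the territory, the count was 2 of 10 regulators, against 17.3% of all genes (3502 of 20234).

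**Figure D1:**
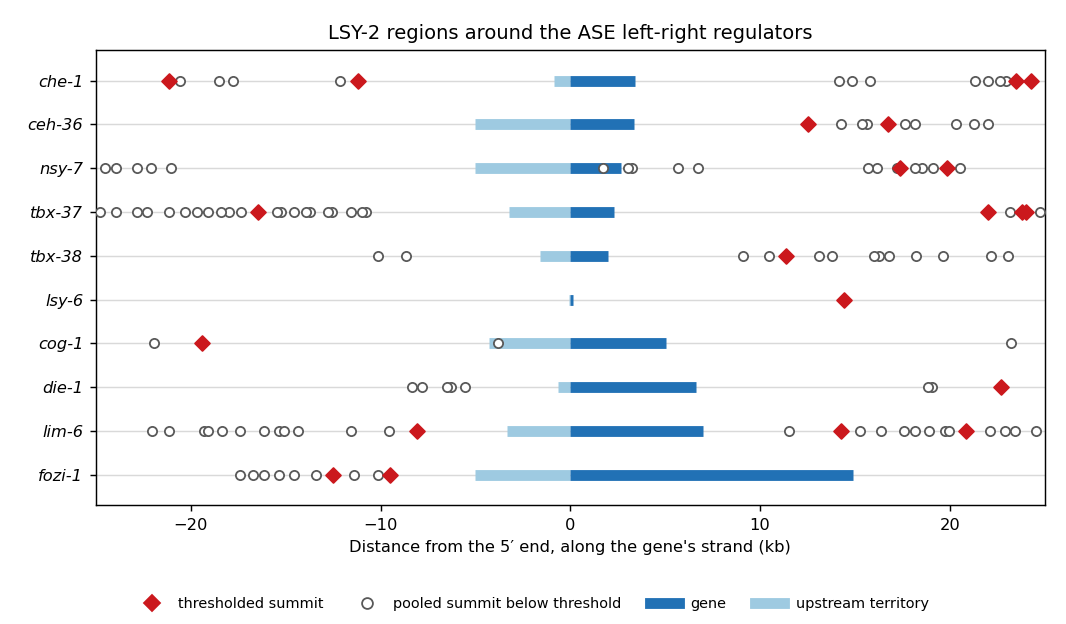
LSY-2 summits of the pooled list within 25 kb of the 5′ end of each regulator, by distance along the strand of the gene in kb; red diamonds are summits of the thresholded list, open circles weaker summits, dark bars the genes and light bars the upstream territory. No diamond lies on a bar, and the bars hold 1 circle at nsy-7 and 1 at cog-1.

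The region at nsy-7 was the stronger of these. It spans chrIV:8084768-8085127, 360 bp, with its summit in an intron of the 2693 bp gene, 1704 bp past the 5′ end. Its deposited signal was 26.1 in the pooled list, at rank 14173 of 30000, where the lowest signal of a thresholded peak was 59.9. Within 200 bp of that summit, replicate 1 had a region of signal 6.4 at rank 29732 of 30000 and replicate 2 one of signal 22.4 at rank 7960.

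The replicates differed at nsy-7. The stronger summit of replicate 1 in the gene, of signal 17.0 at rank 14343, lay 268 bp from the pooled summit and 254 bp from that of replicate 2. The weaker one, at rank 29732, lay 48 bp from the pooled summit and 34 bp from that of replicate 2. In replicate 2 the −log10 q-value of the region stood at 4.28, the highest that list gives, which 9633 of its 30000 regions share. In replicate 1 the stronger summit had 2.13, and the region of the pooled list had 1.68. Rank 7960 of replicate 2 is the nearest that any region at a regulator came to rank 5944, the size of the thresholded list. At that rank the signal of replicate 2 is 28.5.

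Upstream of nsy-7, replicate 2 alone had a further region of signal 8.9 at rank 21346, with its summit 1094 bp before the 5′ end. Neither replicate 1 nor the pooled list had a summit within 200 bp of it. All 31-base words of the region inside nsy-7 occur once in the genome, while over its whole territory 80.8% do, the lowest share among the regulators.

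The region at cog-1, which encodes an Nkx6-type homeodomain factor that promotes the ASER identity, was weak in every list. It spans chrII:14898501-14898860 and its summit lies 3812 bp upstream of the 5′ end, between cog-1 and the noncoding gene R03C1.5, which ends the territory at 4261 bp. Its signal was 15.4 at rank 22518 in the pooled list, 14.1 at rank 17132 in replicate 1 and 10.5 at rank 18552 in replicate 2. The summits of the replicates were 135 bp apart. All 31-base words of the region occur once in the genome.

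Regions of such ranks recur unevenly between the replicates. Among pooled regions ranked 14001 to 15000, as at nsy-7, 64.2% had a summit within 200 bp in both replicates. Among those ranked 22001 to 23000, as at cog-1, 28.2% had, against 98.0% of the thresholded peaks. The 2 regions at the regulators both had such counterparts, but at nsy-7 the one in replicate 1 was the region at rank 29732, near the end of its list, with a −log10 q-value of 0.409.

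**Figure D2:**
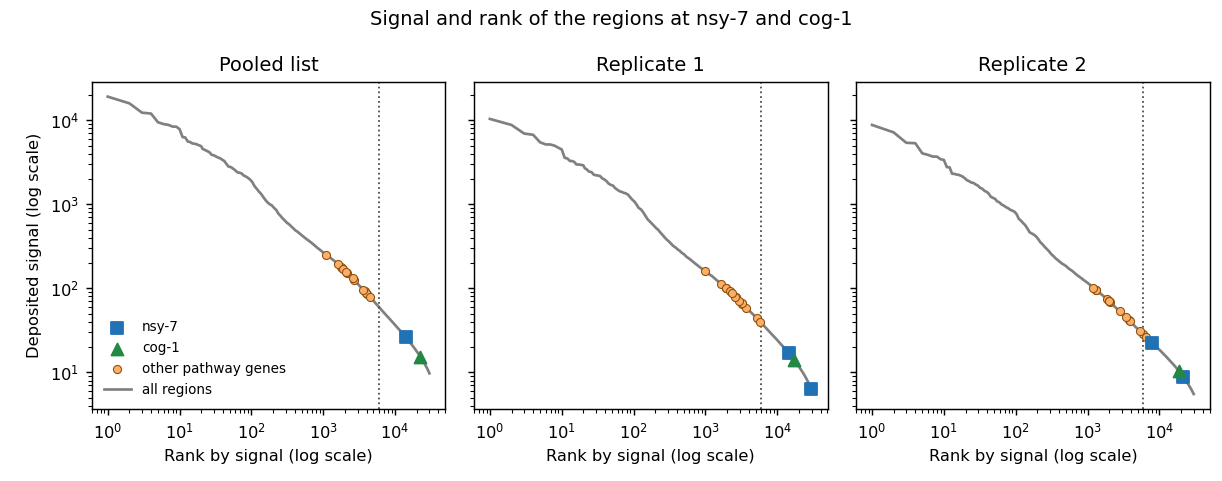
Deposited signal against rank, both on log scales, in the pooled list and in each replicate; the grey line is every region, squares are regions in nsy-7 and its upstream territory, triangles the region at cog-1 and small circles the strongest thresholded summit of each other pathway gene that has one. The dotted line marks rank 5944, and every square and triangle lies to its right.

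The sequences of these 2 regions are shown at their summits, 101 bases each on the strand of the gene from the WBcel235 genome, because they are the only LSY-2 regions of the pooled list at the regulators. The summit base is in capitals. The nsy-7 window is chrIV:8084898-8084998 on the minus strand and the cog-1 window is chrII:14898631-14898731 on the plus strand.
nsy-7 window: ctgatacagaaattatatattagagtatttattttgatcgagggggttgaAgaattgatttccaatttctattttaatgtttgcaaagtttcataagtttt
cog-1 window: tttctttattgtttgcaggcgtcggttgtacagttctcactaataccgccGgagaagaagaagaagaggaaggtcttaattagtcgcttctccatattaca

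The nsy-7 window had 25.7% GC and the cog-1 window 41.6%. The windows of 101 bases at thresholded summits had a mean of 43.6%, and those at weaker pooled regions 35.5%. The windows were searched on both strands for 7 words, which overlap one another, taken from an earlier description of the peaks of this series. Of windows of this length at thresholded summits, 25.9% held GAGAGA, 18.1% held AGAGAC, 15.7% held GAGACG and 13.1% held AGACGC. The word GACGCA was in 14% of them, the word ACGCAG in 14.3% and the longest word, AGACGCAG, in 9.3%. Neither window held any of them. Of windows at thresholded summits 45.0% held at least 1 of the words, and of those at weaker pooled regions 17.4%. So few windows cannot show a difference from either share.

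The same words do occur in the territories of the regulators. GAGAGA lay at 56 places in 8 of the 10, or 0.733 per kb, against 0.741 per kb over all genes. AGAGAC lay at 39 places in 9 of them, or 0.511 per kb, against 0.368 per kb over all genes. Of all genes, whose median territory is shorter, 73.3% hold GAGAGA and 63.2% hold AGAGAC. The other words, the longest aside, lay at 0.17 to 0.314 per kb, against 0.21 to 0.304 per kb over all genes. Some of these stood slightly above their density over all genes and some below it. AGACGCAG, the longest of the words, lay at 3 places in 2 of the 10, or 0.039 per kb, against 0.062 per kb over all genes, and 17.7% of all genes hold it in their territory. Of its 5812 places in the genome, 595, or 10.2%, had a thresholded summit within 50 bp. The share of all genome positions so near a thresholded summit was not computed.

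Those 3 places are shown with their flanks, 30 bases each on the strand that reads AGACGCAG, since of the words searched theirs had the largest share of places near a summit, and none of the 3 has a summit of the pooled list within 50 bp. The first is at chrIV:8087537-8087566, 900 bp upstream of nsy-7. The others belong to fozi-1, at chrIII:9280052-9280081, 1713 bp upstream, and at chrIII:9290088-9290117, in an intron 8323 bp past the 5′ end. The nearest summit of the pooled list was 2604 bp away at nsy-7, and 7788 bp and 17824 bp away at fozi-1. The region that replicate 2 alone had upstream of nsy-7, with its summit at 1094 bp, lies beside the first place.
nsy-7 upstream: actctcttatgAGACGCAGgtggttggcaa
fozi-1 upstream: tcactttcacgAGACGCAGaccacttctct
fozi-1 intron: tgagttgtgagAGACGCAGattaccattct

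The lsy-6 hairpin itself holds summit words in both arms. In arm b, GAGACG takes bases 9 to 14, while AGACGC takes bases 10 to 15 and the word GACGCA bases 11 to 16, in capitals here. Arm a, which pairs with it, holds the last 2 of these on the opposite strand.
lsy-6 arm b: uuuuguauGAGACGCAuuucga

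These 3 words overlap in a single stretch and were picked because lsy-6 holds them, so that lsy-6 is counted by choice. Among the 261 annotated microRNA genes, 10 hold GAGACG, 5 hold AGACGC and 7 hold GACGCA, and 2, lsy-6 included, hold all 3. The words are common elsewhere. The genome has AGACGC at 20598 places, and 47.2% of all genes have it in their territory. Of these places 4.2% lay within 50 bp of a thresholded summit, with no share over all genome positions to set beside it. No summit of any list lay in the territory of lsy-6. The nearest region of the pooled list, of whatever rank, was 14437 bp downstream of its 5′ end, in the territory of sqv-4. It was a thresholded peak of signal 86.7 at rank 4011, with signal 41.5 at rank 5536 in replicate 1 and 52.5 at rank 2882 in replicate 2. Upstream of lsy-6 the nearest region of the pooled list was 44666 bp away. The stretch around lsy-6 without any pooled region was thus 59.1 kb long, against a median of 24.16 kb around the 5′ ends of all genes. It lies between the quartiles over all genes, 2.6 and 60.08 kb.

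Thresholded summits lay several kilobases or more from each regulator. Over the 10, the distance from the 5′ end ranged from 8103 to 22684 bp with a median of 13477 bp, against a median of 8438 bp over all genes, whose quartiles were 1863 and 22716 bp. The share of all genes with a nearer summit ran from 49.1% for lim-6 to 74.9% for die-1. Within 5000 bp of the 5′ end on either side, none of the 10 regulators had a thresholded summit, against 38.9% of all genes. Within 10000 bp, 2 of the 10 had one, against 54.0% of all genes. In wider windows the order was the other way: 9 of the 10 within 20000 bp, against 71.7%, and all 10 within 50000 bp, against 91.0%.

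**Figure D3:**
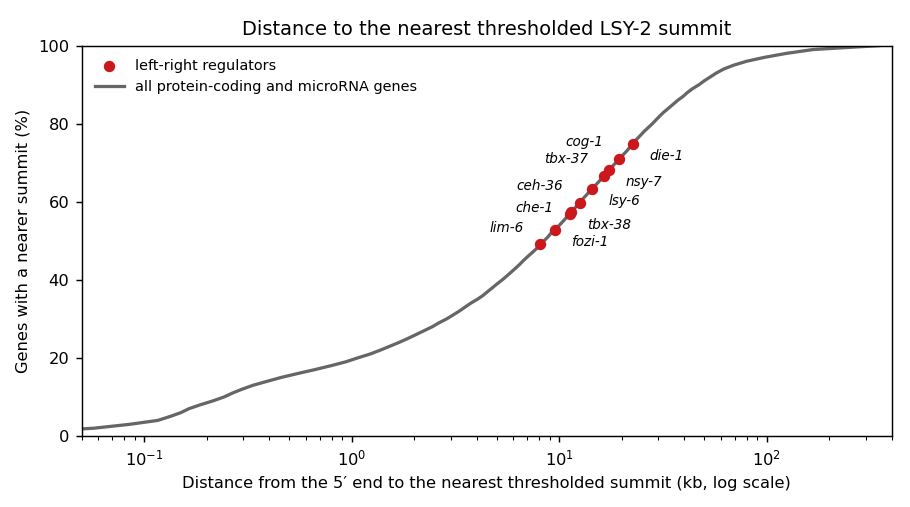
Distance in kb (log scale) from the 5′ end of a gene to the nearest thresholded LSY-2 summit, against the share of protein-coding and microRNA genes with a nearer one; points are the 10 regulators and the line is all genes. The regulators lie between 8.1 and 22.7 kb, where 49.1% to 74.9% of all genes have a nearer summit.

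By their median count of peaks, the neighbourhoods of the regulators were not poor in peaks. Within 50 kb of the 5′ end, the regulators had from 2 thresholded summits at cog-1 to 11 at che-1, with a median of 5, and the median over all genes was also 5. The stretch without a thresholded summit around each 5′ end ranged from 22.4 kb at lim-6 to 124.6 kb at lsy-6. Its median was 49.0 kb, against a median of 45.13 kb over all genes, whose quartiles were 18.84 and 92.45 kb. The stretches at lsy-6 and ceh-36 (123.3 kb) lay above the upper quartile, and those of the other regulators below it. For the stretch without any pooled region, ceh-36 alone lay above the upper quartile, with 114.3 kb against 60.08 kb.

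The selectors of ASE identity, which act in both cells, had no region of any list in their territory. The gene che-1, which encodes the zinc finger factor that switches on the ASE gene battery, lies at chrI:6517529-6520918 on the minus strand. Its nearest region of the pooled list was the thresholded peak 11194 bp upstream, in the territory of T10E9.14, with 4 genes between. That peak had signal 249.3 at rank 1107, and ranked 1089 in replicate 1 and 1132 in replicate 2. The Otx-type homeobox gene ceh-36, at chrX:14183221-14186566 on the minus strand, had its nearest region 12517 bp downstream of the 5′ end, in the territory of idhb-1. That was a thresholded peak of signal 237.7, ranked 1492 in replicate 1 and 1066 in replicate 2. Upstream of ceh-36 no region of the pooled list lay within 101750 bp, the longest such gap at any regulator.

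The embryonic inputs had no region in their territory either. The T-box genes tbx-37 and tbx-38 act redundantly in the early lineage from which ASEL descends and prime lsy-6 for later expression. The gene tbx-37, at chrIII:11224808-11227125 on the minus strand, had a weak region of signal 20.5 at rank 17660 at 10782 bp upstream, and its nearest thresholded peak, in the territory of rsks-1, at 16446 bp upstream. That peak had signal 197.9, and ranked 1141 in replicate 1 and 2760 in replicate 2. The gene tbx-38, at chrIII:11784082-11786061 on the minus strand, had a weak region of signal 37.7 at rank 9674 at 8651 bp upstream, outside the territory of any protein-coding or microRNA gene. Its nearest thresholded peak, of signal 152.1, lay 11353 bp downstream of its 5′ end, in the territories of gbf-1 and immp-1. Of the 31-base words in their territories, 95.1% at tbx-37 and 92.6% at tbx-38 occur once in the genome.

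The gene nsy-7, at chrIV:8083960-8086652 on the minus strand, had its nearest thresholded peak inside the gene sax-7, which overlaps its 3′ end on the opposite strand. The peak lay 17401 bp from the 5′ end of nsy-7, with signal 78.0, and ranked 4602 in replicate 1 and 7142 in replicate 2.

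Among the members of the loop, cog-1 and die-1 had the most distant thresholded summits. The gene cog-1, at chrII:14902493-14907533 on the plus strand, had its nearest one 19405 bp upstream, of signal 67.8 at rank 5248, with no protein-coding or microRNA gene between. It ranked 4657 in replicate 1 and had no counterpart within 200 bp in replicate 2. The gene die-1, whose product promotes the ASEL identity, lies at chrII:10061302-10067917 on the minus strand. Its nearest thresholded summit was 22684 bp downstream of the 5′ end, in the territory of bath-38, with signal 169.6, and ranked 1808 in replicate 1 and 2577 in replicate 2. A weak region of signal 14.7 at rank 23229 lay 5533 bp upstream of die-1, past the noncoding gene C18D1.17, which ends its territory at 637 bp.

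The output genes of the loop, lim-6 and fozi-1, had the nearest thresholded summits of the 10. The LIM homeobox gene lim-6, which keeps ASER genes off in ASEL, lies at chrX:1072452-1079452 on the plus strand. Its nearest summit was 8103 bp upstream, at unc-1, with signal 95.8, and ranked 3149 in replicate 1 and 4002 in replicate 2. The gene fozi-1, which encodes a zinc finger factor that keeps ASEL genes off in ASER, lies at chrIII:9281780-9296675 on the plus strand. Its nearest summit was 9501 bp upstream, at clip-1, with signal 63.8 and rank 5594, close to the end of the thresholded list, and ranked 7648 in replicate 1 and 5597 in replicate 2. At lim-6, fozi-1, che-1, ceh-36 and lsy-6, the nearest region of any rank in the pooled list was this thresholded summit, so that nothing weaker lay closer.

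Most sequence in the territories of the regulators was unique, though less than over all genes. Of the 31-base words in each territory, between 80.8% and 100% occur once in the genome, with a median of 97.0%. Over all genes the median was 99.6% and the lower quartile 94.1%. At che-1, die-1 and lsy-6 the share was 100%. At nsy-7 (80.8%), lim-6 (87.0%), ceh-36 (91.4%) and tbx-38 (92.6%) it was below that quartile. Whether this affected the lists was not tested.

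Other genes of the pathway were counted in the same way. The list of partners of LSY-2 held lsy-2 itself, unc-37, lin-49, lsy-12, lsy-13, lsy-22, lsy-27 and ztf-6. Of these, 5 of 8 (62.5%) had a thresholded summit in their territory. Of the lineage and Notch inputs 3 of 8 had (37.5%), of the ASE effectors 1 of 15 (6.7%) and of the AWC asymmetry genes 5 of 15 (33.3%), beside the 21.6% of all genes. Their territories differ in length: the medians were 6322 bp, 12303 bp, 5619 bp and 12243 bp, and per 100 kb they held 15.82, 5.9, 1.07 and 6.65 thresholded summits. The lists are small, and no test of these differences was made.

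The partners with a summit were lin-49, a bromodomain gene, at signal 249.9, the Groucho gene unc-37 at 177.7, lsy-13 at 176.4, lsy-22 at 91.9 and the histone acetyltransferase gene lsy-12 at 85.3. At lin-49, unc-37 and lsy-13 the summit lay 351 bp, 219 bp and 203 bp upstream of the 5′ end, and at lsy-22 and lsy-12 the strongest lay in an intron. The strongest of these was at lin-49, which ranked 997 in replicate 1 and 1297 in replicate 2. Among the Notch inputs, lag-1, the DNA-binding factor of the pathway, had 196.2, the receptor gene lin-12 124.8 and sel-8 89.2, all inside the gene. The effector with a summit was the calcineurin gene tax-6, at 153.7 in an intron.

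The AWC asymmetry genes with a summit were olrn-1 at 171.1, tir-1 at 155.7, the kinase gene unc-43 at 131.4, the potassium channel gene slo-1 at 95.9 and the kinase gene nsy-1 at 79.1. Those of olrn-1, slo-1 and nsy-1 lay upstream, and the strongest of unc-43 and tir-1 lay in an intron. The strongest summits of the 14 pathway genes named here ranked from 997 to 5717 in replicate 1 and from 1202 to 6581 in replicate 2.

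**Figure D4:**
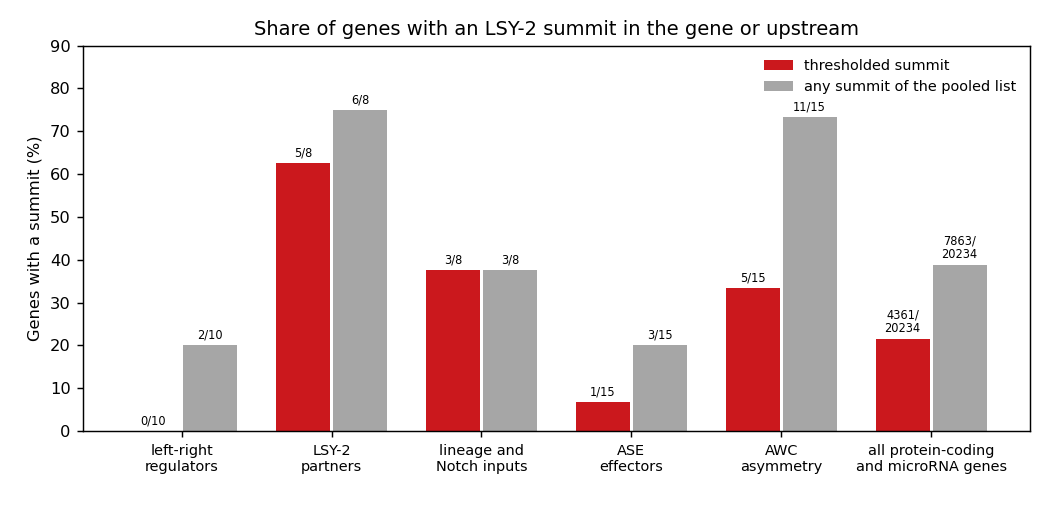
Share of genes, in percent, with a thresholded LSY-2 summit (red) and with any summit of the pooled list (grey) in the gene or its upstream territory; the numbers above the bars are the genes with a summit and the genes counted. The left-right regulators have 0 of 10 and 2 of 10, and all protein-coding and microRNA genes 4361 and 7863 of 20234.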

How the data were processed

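The lists are narrowPeak files on the ce11 build. Per the deposited notes, the authors made the replicate and pooled lists from alignments and a control alignment, and the thresholded list from these 3 by IDR. Which aligner, peak caller and thresholds they used is not given in these sources. The control was not analysed here. The signal is the deposited column of that name, of unstated scale, and was used to rank regions within a list. The deposited −log10 q-value is capped in each list and was used only to describe regions. The ce10 lists were not used.

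Genes came from Ensembl release 115 of WBcel235. It names 9 of the 10 members, and lsy-6 was matched through its WormBase identifier to the RefSeq symbol. No region ended beyond a chromosome end. The thresholded list equals the 5944 strongest pooled regions. A summit is the start plus the deposited offset.

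Members and lists were chosen with earlier results of these data known, as were the words searched. With 1 group no test was possible, and counts are set beside those over all genes. The rule for named genes took all members and each listed pathway gene with a thresholded summit. Its part on genes of like rank named none, since no member had such a summit. Counting was tested on simulated data. Python 3.11.15, numpy 2.4.6, pandas 2.3.3 and matplotlib 3.10.9 were used.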

Additional observations from a re-analysis of the deposited data

How the results depend on the processing

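The count of regulators with a thresholded summit was 0 of 10 under each of the 10 alternatives run: upstream limits of 2000 bp and 1000 bp, other rules for the next gene, the gene body alone, a promoter window, the whole peak interval, the 2972 strongest peaks, and each replicate alone. The share over all genes ran from 7.04% with the gene body alone to 33.8% with 5000 bp whatever gene lies there. The count with a pooled summit was 2, and became 1 with upstream limits of 2000 bp or 1000 bp, which leave out the region at cog-1. The count with summits in both replicates was 2, and became 1 when these had to lie within 100 bp, which again leaves out cog-1. The best rank of any region at nsy-7 was 7960 without replicate 1 and 14343 without replicate 2. No paired analysis was possible because there is only 1 group. Depth is unknown, so weak or rare binding below the lists' reach was not detectable here.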
